A study of Mus musculus with 12 samples.

Results

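The clustered protocadherin genes of the mouse are those whose symbols begin with Pcdha, Pcdhb or Pcdhg, and all of them lie on chromosome 18. By that rule, 57 of the 21883 protein-coding genes in the reference table were members, 14 in the alpha cluster, 22 in the beta cluster and 21 in the gamma cluster. Peaks of 5-methylcytosine (m5C), a methylated base of RNA, were counted in these genes in hippocampal tissue from wild-type female C57BL/6 mice. The young group was 3 months old and the naturally aged group 18 months, with 3 peak lists per age. Each list comes from 1 library of RNA captured with an m5C antibody and its own input library of uncaptured RNA. No transgene, deletion or drug is named for either group, and separate animals are not stated, so the p-values below rest on a spread between samples that may be technical.

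Clustered protocadherins are cadherin-like cell adhesion proteins of the neuronal surface. Each neuron uses a small, largely random choice of them, and the resulting combination serves as an identity by which its own branches recognise and avoid each other. In the alpha and gamma clusters each gene contributes its own large first exon, which encodes the extracellular part, the membrane span and part of the tail. This exon is spliced to a few exons near the end of the cluster that all members of the cluster share and that encode the common end of the tail. Beta genes consist of a single large exon and have no shared exons. In the gamma cluster the variable exons are of types A, B and C. The C types, also found at the end of the alpha cluster, are known to be used more evenly from neuron to neuron.

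The alpha spans run over chr18:36930285-37188897, the beta spans over chr18:37264998-37521419 and the gamma spans over chr18:37661775-37841873 (mm10). The reference table gives gene spans without exons. The variable part of an alpha or gamma member was therefore taken as the first 3000 bases of its span, and that of a beta member as its whole span. The shared part was everything beyond the variable part of the last member, from 37146678 to 37188897 in alpha and from 37822546 to 37841873 in gamma. A peak in a shared part belongs to no single member. Over the 6 lists 81 peaks overlapped members on their strand, 65 of them in variable parts and 16 in shared parts, and 0 lay between the parts.

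The lists held 8549 to 10392 peaks at 3 months and 14008 to 15189 at 18 months, and young replicate 2 had the shortest. Read depths are unknown. Each peak has the authors' score, whose lowest listed value was 50 or 50.01, and the scores are used here to describe and rank peaks. Where scores of the ages are set side by side, no change in methylation is read from them. All 9 hippocampal neuron markers had a peak in at least 1 list, among them Prox1, of dentate granule cells, and Neurod6, of pyramidal neurons, in all 6. A peak needs a transcript, and in bulk tissue fewer cells of a type and less RNA per cell cannot be told apart. Markers of other cells had peaks as well, in 5 of 5 astrocyte, 5 of 5 oligodendrocyte, 1 of 5 microglial, 2 of 4 endothelial and 1 of 4 choroid plexus genes. Of the 23 markers with a peak, 2 had one in each aged list and in none of the young ones (the astrocyte gene Aldh1l1 and the endothelial gene Pecam1), a pattern shown by 4.21% of all genes with a peak in their span, and 0 had the opposite pattern. The astrocyte gene Aqp4 was in 3 young and 2 aged lists. Mog, of oligodendrocytes, was in young replicate 1 alone, with a score of 64.7. Ttr, of the choroid plexus, was in young replicate 3 alone, with 3 peaks and a best score of 2822. The other choroid plexus markers, Kl, Folr1 and Aqp1, had no peak in any list. The part of cell composition in the results below was not tested.

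The highest-scoring peaks of the clusters lay in the shared parts of alpha and gamma and were present at both ages. The shared alpha peak began at position 37184946 in every list and ended between 37186537 and 37187166. Its score was 1088, 530.6 and 1057 in the young lists and 3100, 2037 and 2698 in the aged lists. Within each list it scored above 84.3% to 95.3% of all peaks. The shared gamma peak occupied chr18:37839903-37841873 in all 6 lists, with identical ends and a width of 1971 bases, up to the last base of the cluster. Its score was 504.5, 193.0 and 875.1 in the young lists and 2051, 2027 and 3100 in the aged lists, above 65.8% to 95.5% of the peaks of its list. For both peaks every aged score exceeded every young score, as was the case in 45.7% of the 4317 consensus regions (unions of peaks that touch or overlap) with a peak in all 6 lists. The reverse held in 1.85% of those regions. The lists differ in length and unknown depth and the scale ends near 3100, so no change in methylation is read from this. In each list both peaks scored higher than any variable-part peak of the same cluster.

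A second shared gamma peak was much smaller. It covered 89 bases at chr18:37833265-37833353, with the same ends wherever it was listed, in young replicate 1 and in all 3 aged lists. Its score was 64.9 in young replicate 1 and 61.8, 80.2 and 182.1 in the aged lists, and in 3 of these 4 lists it was below the list's median. Together the shared parts held 3, 2 and 2 peaks in the young lists and 3, 3 and 3 in the aged lists. The means were 2.33 ± 0.577 and 3.0 ± 0 (SD, n = 3 each, exact permutation p = 0.4, two-sided). The smallest p that 3 lists against 3 allow is 0.1. Over the 14 such tests made here, which leave out the peak widths of single genes given below, the lowest Benjamini-Hochberg adjusted p was 0.7.

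**Figure D1:**
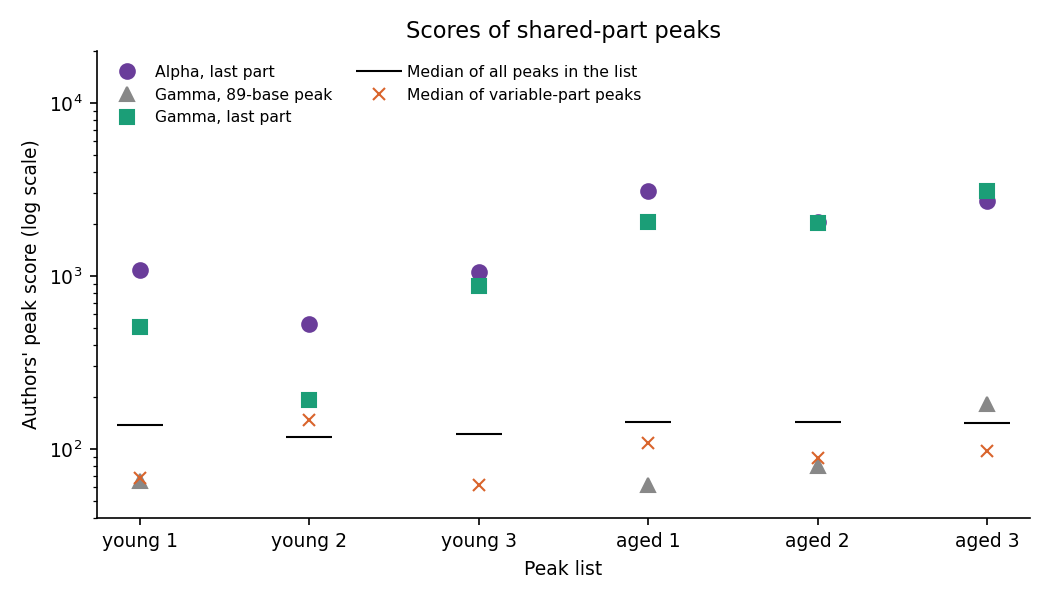
Authors' peak score (log axis) of the peaks in the shared parts of the alpha and gamma clusters, by peak list, with the median of all peaks of the list (bar) and of its variable-part peaks (cross). The alpha and the last gamma peak stand above the list median in all 6 lists, and the 89-base gamma peak is listed in 4.

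The number of clustered protocadherin peaks did not separate the ages. There were 15, 7 and 14 in the young lists and 13, 13 and 19 in the aged lists, and the groups overlapped. The means were 12 ± 4.36 and 15 ± 3.46 (SD, n = 3 each, exact permutation p = 0.6), a ratio of 1.25. As a share of all peaks in the list they made up 0.152%, 0.0819% and 0.135% in young and 0.0856%, 0.0928% and 0.133% in aged lists. The mean share was 0.123% ± 0.0364 and 0.104% ± 0.0255 (exact permutation p = 0.6), so the order of the means was opposite to that of the counts. The covered length was 19602 ± 5818 bases in young and 21232 ± 4287 bases in aged lists (exact permutation p = 0.8). With all lists cut to an equal length of 8549 peaks by score, the means were 8.0 peaks in young and 7.67 in aged lists (exact permutation p = 1). Without young replicate 2 the aged excess was 0.5 peaks in place of 3, and without aged replicate 3 it was 1.

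**Figure D2:**
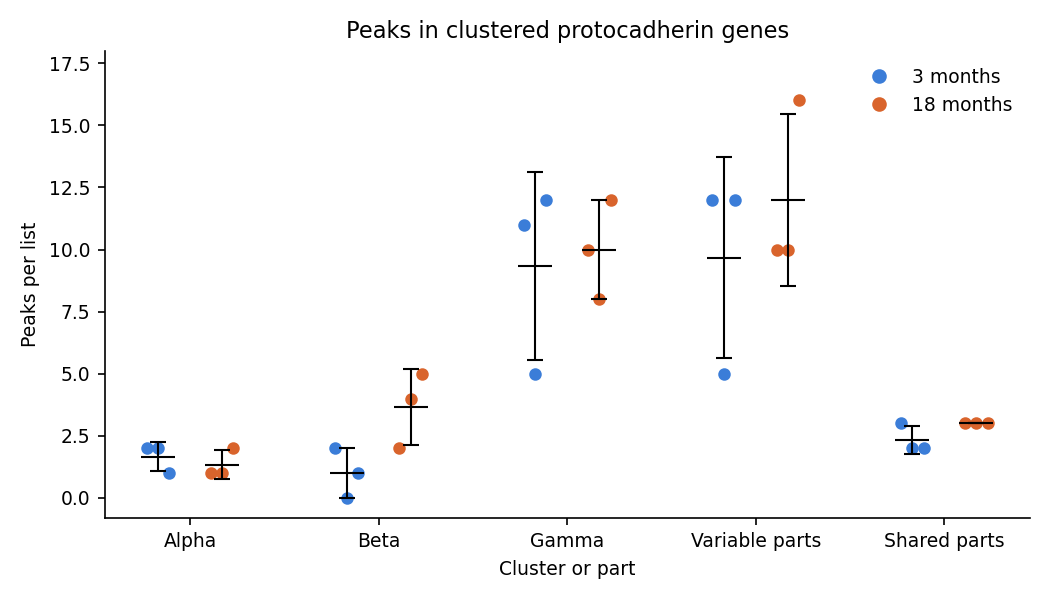
Number of peaks per list in the alpha, beta and gamma clusters and in variable and shared parts, at 3 months (blue) and 18 months (orange). Points are replicates 1 to 3 from left to right, bars are mean and SD of 3 lists. The ages touch or overlap in every column.

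Of the 57 members, 25 had a variable-part peak in at least 1 list and 32 had none. Young lists had 12, 5 and 11 such members and aged lists 9, 10 and 15, with means of 9.33 ± 3.79 and 11.3 ± 3.21 (SD, n = 3 each, exact permutation p = 0.6). Across all lists of an age, 16 members had one at 3 months and 20 at 18 months. The 11 found at both ages were 68.8% of the young and 55.0% of the aged set. No member and no region had a peak in all lists of one age and none of the other. Among all genes with a peak in their first 3000 bases, 6.47% did so on the aged and 0.752% on the young side, and among all consensus regions 5.13% and 0.637%. Members were found in few lists: 16 of the 25 (64.0%) in only 1 or 2, against 46.2% of all 3324 genes with a peak in their first 3000 bases, and 1 (4.0%) in all 6, against 21.2%.

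**Figure D3:**
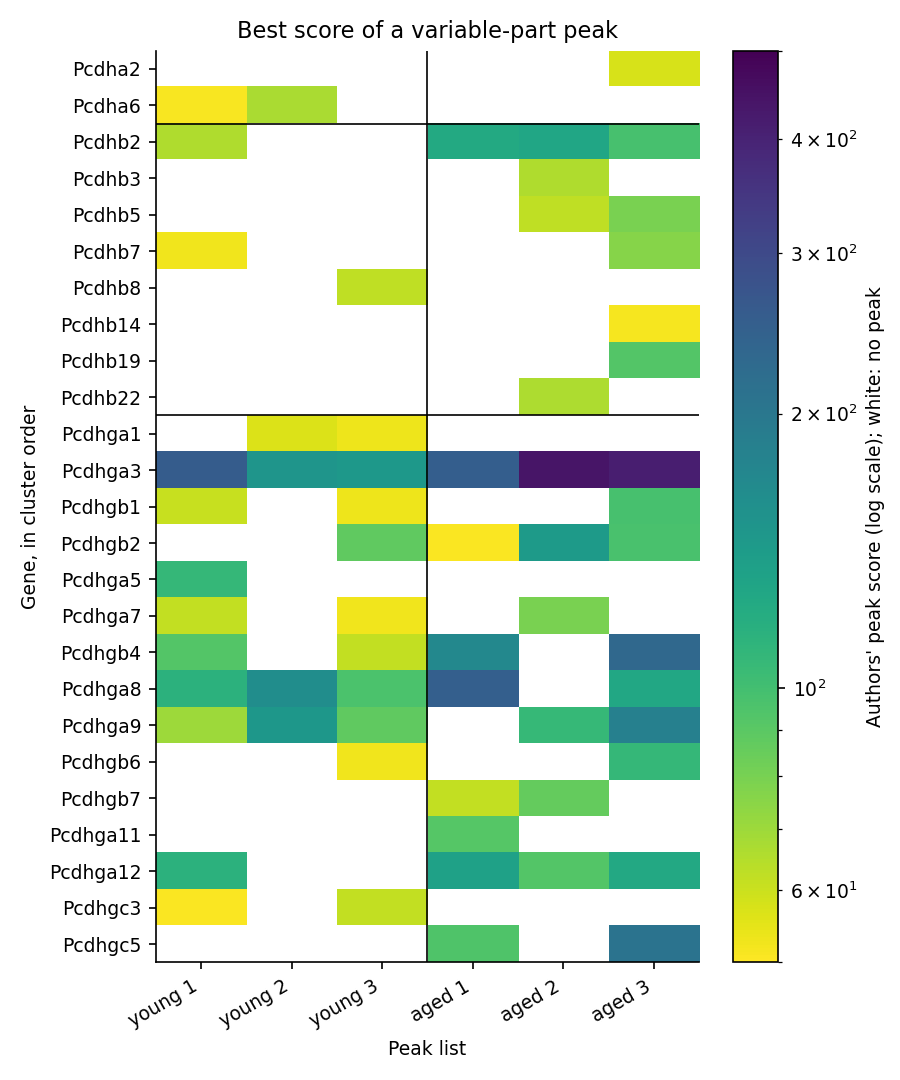
Best score of a variable-part peak (colour, log scale) for the 25 members that have one, by peak list; white means no peak, and black lines part the clusters and the ages. Pcdhga3 is the only row filled in all 6 lists, and the beta rows are filled mostly on the aged side.

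The gamma cluster carried most of the variable-part peaks, 48 of 65, in 15 of its 21 genes. Its peaks, shared part included, numbered 11, 5 and 12 in young and 10, 8 and 12 in aged lists, with means of 9.33 ± 3.79 and 10 ± 2.0 (SD, n = 3 each, exact permutation p = 0.9). The aged minus young difference of 0.667 became -1.5 without young replicate 2 and -0.333 without aged replicate 3. Type A genes with a peak numbered 6, 4 and 5 of 12 in young and 4 in each aged list. Type B genes numbered 2, 0 and 4 of 6 in young and 3, 2 and 4 in aged lists. Of the 3 type C genes, 1, 0 and 1 had a peak in young and 1, 0 and 1 in aged lists.

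Pcdhga3, a type A gene, was the only member with a variable-part peak in all 6 lists. Its best score was 256.2, 150.8 and 146.6 in young and 250.9, 438.9 and 413.4 in aged lists, the highest of all variable-part peaks in every list but young replicate 2, where the peak of Pcdhga8 scored 161.2. The peak began at the first base of the span, position 37674335, in every list. Its width at that place was 481, 611 and 732 bases in young and 1138, 1365 and 952 bases in aged lists, without overlap (means 608 ± 126 and 1152 ± 207, SD, n = 3 each, exact permutation p = 0.1, the smallest this design allows). In young replicate 3 and in aged replicate 3 a second peak followed it and ended at position 37676907 in both. In both, the width given is that of the first peak alone. This gene and its widths were singled out after the values were seen. How many of all regions separate by age in peak width was not counted.

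Pcdhga8 and Pcdhga9, also of type A, had peaks in all young lists and in 2 aged lists. The best scores of Pcdhga8 were 113.8, 161.2 and 96.3 in young lists and 248.7 and 125.9 in aged replicates 1 and 3. Its peak was 1782, 2026 and 2270 bases wide in the young and 1187 and 1019 bases wide in the aged lists, the opposite order to Pcdhga3 (exact permutation p = 0.1, the smallest that 3 against 2 allows). These widths, too, were singled out after the values were seen, without a count of such separations over all regions. Pcdhga9 scored 70.2, 147.9 and 87.4 in young lists and 106.6 and 183.0 in aged replicates 2 and 3. Its widths overlapped between ages, at 907 to 2608 bases in young and 1768 to 1985 bases in aged lists.

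Pcdhga12, Pcdhgb2 and Pcdhgb4 were listed 4 times. Pcdhga12 and Pcdhgb2 had a peak in all aged lists and in 1 young list. The score of Pcdhga12 was 114.2 in young replicate 1 and 133.7, 92.2 and 124.8 in the aged lists. That of Pcdhgb2 was 87.5 in young replicate 3 and 50.7, 142.1 and 96.6 in the aged lists. Pcdhgb4 was present in 2 lists of each age, with 92.3 and 62.0 in young replicates 1 and 3 and 170.9 and 230.1 in aged replicates 1 and 3. Pcdhga7 and Pcdhgb1 were listed in 2 young and 1 aged list, and Pcdhgb6 in 1 of each. Pcdhga5 had a peak in young replicate 1 alone and Pcdhga11 in aged replicate 1 alone.

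Of the type C genes of gamma, 1 was listed only at 3 months and another only at 18 months. Pcdhgc3, whose product is known to bind the Wnt regulator Axin1, had a peak at chr18:37806410-37808977 in young replicates 1 and 3, with scores of 50.7 and 61.6, and in no aged list. Pcdhgc5 had one at chr18:37819546-37821506 in aged replicates 1 and 3, with scores of 94.0 and 208.0, and in no young list. Pcdhgc4, known to be needed for the survival of cortical interneurons, had none in any list. With at least 2 lists of one age and 0 of the other as the rule, 3 members were on the aged side (Pcdhgc5, Pcdhb5 and Pcdhgb7) and 3 on the young side (Pcdhgc3, Pcdha6 and Pcdhga1). That is 12% of the 25 members on each side, where all genes gave 17.5% aged and 2.71% young. Consensus regions give another set, since the 2 Pcdhgb7 peaks do not overlap each other and the region at the start of Pcdhb2 takes that place on the aged side. Of the 30 regions, 3 were on each side (10.0%), against 14.9% aged and 2.75% young over all regions. The scores of the young-side members, 50.7 to 67.0, were all near the lowest listed value. On the aged side Pcdhb5 scored 62.2 and 79.5 and Pcdhgb7 61.9 and 86.1.

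In the alpha cluster 6 of the 9 peaks lay in the shared part, and 12 of 14 genes had no variable-part peak in any list. Pcdha6 had one in young replicates 1 and 2, with scores of 51.3 and 67.0, and Pcdha2 in aged replicate 3, with 57.3. Neither Pcdhac1 nor Pcdhac2, the C types of this cluster, had one. Pcdhac2 is known for spacing the branches of serotonergic axons. Including the shared peak, alpha held 2, 2 and 1 peaks in young and 1, 1 and 2 in aged lists (means 1.67 ± 0.577 and 1.33 ± 0.577, SD, n = 3 each, exact permutation p = 1).

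The beta cluster had more peaks in the aged lists, without passing the test. It held 2, 0 and 1 peaks in young and 2, 4 and 5 in aged lists, so that only young replicate 1 and aged replicate 1 were level. The means were 1.0 ± 1.0 and 3.67 ± 1.53 (SD, n = 3 each, exact permutation p = 0.2, adjusted p = 0.764). With lists of equal length the means were 0.333 and 0.667 (exact permutation p = 1), and from the median score of each list upward no beta peak was left. Of the 22 beta genes, 8 had a peak in some list, 5 of them only in aged lists, 1 only in a young list and 2 at both ages.

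Pcdhb2 was the beta gene with the most lists, 1 young and 3 aged. Its best score was 65.5 in young replicate 1 and 123.2, 128.3 and 97.7 in the aged lists. The aged peaks did not share 1 region. Aged replicates 1 and 3 had a peak at the first base of the gene, at chr18:37294840-37295825, while young replicate 1 and aged replicates 1 and 2 had one farther on, at chr18:37296721-37297482. Pcdhb5 had a peak in aged replicates 2 and 3 and in no young list, at chr18:37323118-37323768. Pcdhb7 was listed in young replicate 1 and aged replicate 3, with scores of 52.6 and 75.9. The other beta genes with a peak were each in 1 list: Pcdhb3 and Pcdhb22 in aged replicate 2, Pcdhb14 and Pcdhb19 in aged replicate 3, and Pcdhb8 in young replicate 3, with scores of 51.6 to 92.9. Members resemble each other in sequence, and the treatment of reads that match several copies is not stated in the labels or lists, so the gene behind a variable-part peak is uncertain.

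The variable-part peaks were wide. Their median width was 1116 to 2026 bases in the 6 lists, where the median over all peaks of a list was 219 to 231 bases, and it was above the list's median in 6 of 6 lists. Of the 65 peaks, 45 (69.2%) were at least 1000 bases wide, against 14.2% to 17.04% of all peaks in a list. The wide ones were mostly in gamma, 39 of 48, whereas 3 of 14 beta peaks reached this width. The scores were low at the same time. In all, 41 of 65 (63.1%) scored under 100, against 36.4% to 43.4% of all peaks in a list, and their median lay below the median of the list in 5 of 6 lists. Young replicate 2 was the exception, with medians of 147.8 for its 5 variable-part peaks and 116.9 for the list.

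**Figure D4:**
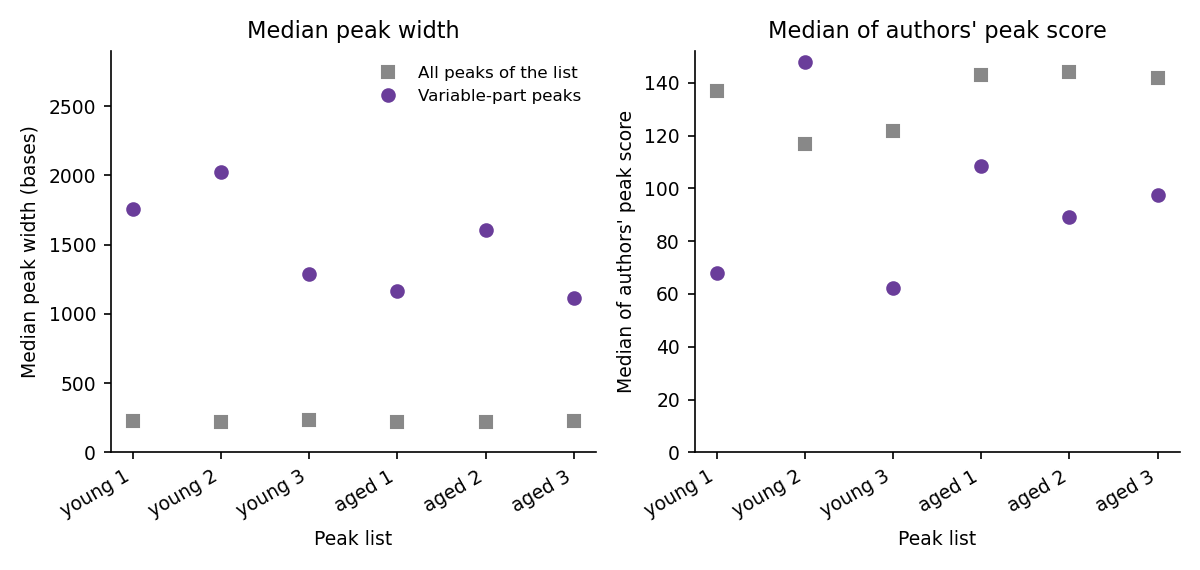
Median width in bases (left) and median authors' score (right) of the variable-part peaks (purple circles) and of all peaks (grey squares) in each list. Variable-part peaks are wider than the list in 6 of 6 lists and score lower in 5 of 6.

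The ends of the gamma peaks recurred between lists. Of the 48 variable-part peaks, 25 began exactly at the first base of the gene span and 42 within 400 bases of it. In all, 12 start positions were common to 2 or more lists and accounted for 34 peaks, such as 37736936 for Pcdhga9 in 5 lists and 37720554, which is 178 bases into Pcdhgb4, in 4. End positions recurred in 5 genes. They lay 2572 bases after the gene start in Pcdhga3, 2567 in Pcdhgb1 and in Pcdhgc3, 2510 in Pcdhgb2 and 2960 in Pcdhga12. No alpha or gamma variable-part peak reached farther than 2960 bases from the gene start. Whether these positions are exon borders was not tested, since exon annotation was not used here.

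**Figure D5:**
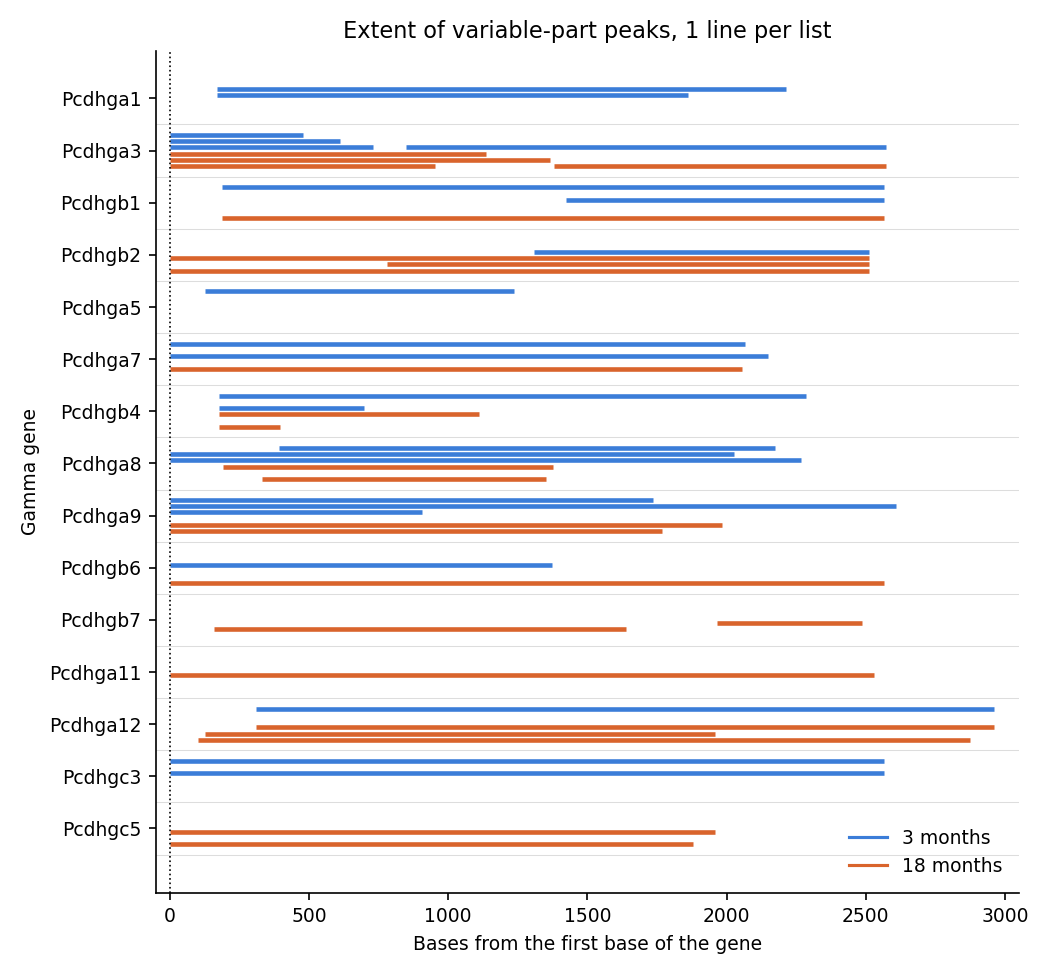
Extent of each variable-part peak in the gamma genes, in bases from the first base of the gene, with 1 line per list in the order young 1 to 3 (blue) and aged 1 to 3 (orange). Many lines start at 0, and none passes 2960 bases.

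On the opposite strand, 3 lists had a peak inside a member, each time at the start of Pcdha11. It covered positions 37010679 to 37013197 in young replicate 1 and 37010697 to 37013197 in young replicate 2, with the same end, 2339 bases into the gene. In aged replicate 1 it ran from 37010625 to 37012100. The scores were 71.9, 76.2 and 94.4. Pcdha11 itself had no peak on the strand of the cluster in any list. These peaks made up 3 of the 84 within member spans on either strand and are not counted above.

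Among 30 neighbouring genes within 500 kb of the clusters, 22 had a peak in some list and 8 in all 6. The number per list was 15, 12 and 12 in young and 15, 18 and 14 in aged lists (means 13 ± 1.73 and 15.7 ± 2.08, SD, n = 3 each, exact permutation p = 0.3). Taf7, a subunit of the general transcription factor TFIID between the beta and gamma genes, had 1 peak in each list. Diaph1, a formin that nucleates actin and lies just beyond gamma, had 2 to 4 peaks in young and 5 to 6 in aged lists. The aged lists hold more peaks in all, and how many of all genes separate by age in peak number was not counted. Hars2, the mitochondrial histidyl-tRNA synthetase, was the only neighbour with a peak in each aged list and in none of the young ones, with scores of 52.0, 175.5 and 135.4. Over all genes with a peak anywhere in their span this held for 4.21% on the aged and 0.798% on the young side.

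The nonclustered protocadherins and other large cadherins, adhesion proteins outside the clusters, had a peak in 17 of 21 genes and in all 6 lists in 7. The number per list was 10, 9 and 10 in young and 10, 12 and 15 in aged lists (means 9.67 ± 0.577 and 12.3 ± 2.52, SD, n = 3 each, exact permutation p = 0.3), and none was restricted to one age. The 7 were Pcdh9, Pcdh10, Pcdh17, Pcdh19, whose human gene is linked to epilepsy, Cdh2, which is N-cadherin, Fat1 and Fat3. The best score of Pcdh10 was 1217, 838.7 and 2115 in young and 3217, 1311 and 2005 in aged lists, and in every list it was above all variable-part peaks of the clustered genes. Pcdh9 likewise exceeded them in every list, with 731.0, 197.6 and 1025 in young and 1695, 1518 and 1047 in aged lists. This comparison leaves out the shared parts of the clusters. The shared alpha peak scored above Pcdh9 in every list, and above Pcdh10 in aged replicates 2 and 3 only. Fat2, Celsr1, Pcdh12 and Pcdh18 had no peak.

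Of the 22 genes that act on promoter choice and chromatin of the clusters, 20 had a peak and 16 had one in all 6 lists. The number per list was 18 in each young list and 19, 18 and 20 in the aged lists (means 18 ± 0 and 19 ± 1.0, SD, n = 3 each, exact permutation p = 0.4), and none was restricted to one age. Ctcf, which binds next to the variable exons and loops them to their enhancers, scored 148.0, 89.1 and 205.0 in young and 412.3, 510.3 and 343.7 in aged lists. Every aged score exceeded every young score, as in 45.7% of the consensus regions with a peak in all 6 lists. That share is per region, whereas the Ctcf scores are the best over the gene span. No change in methylation is read from them. The cohesin genes Rad21, Smc1a, Smc3, Stag1 and Stag2 and the cohesin loader Nipbl and releaser Wapl were in all 6 lists. Smchd1, a repressor of the clusters, was in 2 young and 3 aged lists. Dnmt3b, a DNA methyltransferase of the variable promoters, and Zfp143 had no peak.

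Signalling partners and shedding enzymes had a peak in 18 of 21 genes. The number per list was 12, 10 and 13 in young and 16 in each aged list, without overlap (means 11.7 ± 1.53 and 16 ± 0, SD, n = 3 each, exact permutation p = 0.1, adjusted p = 0.7). With lists of equal length the means were 10.7 and 12.3 (exact permutation p = 0.3). Axin1, the Wnt scaffold bound by the product of Pcdhgc3, was the only one restricted to one age, with scores of 100.6, 80.0 and 114.0 in the aged lists and no young peak. The kinase gene Ptk2b (Pyk2), which clustered protocadherins are known to inhibit, had scores of 120.9, 152.7 and 310.0 in young and 834.4, 733.8 and 825.0 in aged lists. The kinase gene Fyn had the opposite order, with 118.5, 138.6 and 96.7 in young and 54.3, 94.1 and 88.2 in aged lists. Neither gene's ages overlapped. Of the consensus regions with a peak in all 6 lists, 45.7% had every aged score above every young score and 1.85% the reverse. Those shares are per region, whereas the scores here are the best over a gene span. Both genes were picked after their values were seen, and no change in methylation is read from them. The Ptk2b relative Ptk2 (FAK) was in 2 young and 3 aged lists. Of the WAVE complex, which builds branched actin and is bound by alpha tails, Wasf1, Nckap1, Abi1 and Abi2 were in all 6 lists and Cyfip1 and Cyfip2 in 2 young and 3 aged lists. Adam10, which sheds the extracellular part of protocadherins, was in 1 young and 3 aged lists. Over these 3 lists and the neighbours together, 2 of the 76 genes with a peak (2.63%) were aged-only and 0 young-only. Among all genes with a peak in their span, 4.21% were aged-only and 0.798% young-only.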

How the data were processed

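Total RNA was fragmented, captured with an m5C antibody and sequenced beside uncaptured input, per the labels' protocols. The submitters' processing notes list the build mm10 and the tools HISAT2 2.0.4 and cutadapt 1.9.3. The peak names hold the word MACS, per the file contents; neither its version nor its settings were stated. The score of each peak is the authors' own deposited value, listed from 50 upward, per the files. One list belongs to each IP library and its input, so peaks were called per sample. Read counts were not used here, so depth and counting error are unknown.

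Genes came from a RefSeq table of GRCm38.p6 (mm10). The table has no strand, and 81 of 84 peaks in member spans lay on the plus strand, which was taken as theirs. For other genes the strand came from RefSeq promoters (17491 of 21883 genes) or else from most of the gene's peaks. A peak was assigned on an overlap of at least 1 base and counted once. Consensus regions were unions of touching or overlapping peaks on one strand. The 3 composite gene models that run from alpha into gamma were left out of the neighbours, and Pcdh1 and Pcdh12 are in 2 lists. Libraries were compared with a two-sided exact permutation test (Python 3.11.15, numpy 2.4.6, pandas 2.3.3), with Benjamini-Hochberg adjustment over 14 tests. The region and gene calls were run on simulated lists with age-restricted regions planted in every list of one age. Such regions meet the rule by construction, so this checked the calculation alone and gives no error rate for the real lists. The members, gene lists and tests were chosen with earlier results of these data known. Named were all members with a variable-part peak, list genes restricted to one age or in all 6 lists, and some list genes picked after their values were seen. Alternatives were peaks from the list's median score upward, equal list length, at least 50% overlap, either strand, variable parts of 2000 and 5000 bases, regions merged up to 100 bases apart, a relaxed rule, a replicate block and leaving out each library.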

Additional observations from a re-analysis of the deposited data

How the results depend on the processing

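No test passed 0.05 under any setting, and none could with 3 lists against 3. With lists of equal length the aged minus young difference turned negative for all peaks (-0.333), gamma peaks (-0.333), variable-part peaks (-0.333), covered bases (-953), all partner genes (-0.333), the promoter choice genes (-0.333) and the neighbours (-1.67). Leaving out 1 library gave 0.5 to 4.5 for all peaks, -0.667 to -0.167 for alpha, 2 to 3.5 for beta, -1.5 to 2 for gamma, 0 to 3.5 for variable-part and 0.5 to 1 for shared-part peaks. It gave -0.167 to 3.33 for members with a variable-part peak, -0.0394 to -0.00453 percentage points for the share of all peaks, -1616 to 4001 for covered bases and 8.67 to 11.7 for partner genes. Differences that were positive with all libraries turned negative without young replicate 2 (gamma -1.5, members -0.167, bases -1616) and without aged replicate 3 (gamma -0.333, bases -832). Regions restricted to one age numbered 0 to 2 aged and 0 to 1 young, as did members, when 1 library was left out, and 3 aged and 3 young regions with at least 2 of 3 lists against 0. The cause of these shifts was not tested, except that leaving out a library relaxes the rule to 2 lists. Overlap of 50%, either strand, and variable parts of 2000 or 5000 bases turned no direction. With the replicate block, that is lists paired by the number in their labels, the p-values for all peaks (difference 3) and beta peaks (2.67) were 0.5 in exact sign-flip tests, and the smallest possible is 0.25. Same-numbered lists did not deviate together in the presence of peaks over all regions (r from -0.0122 to 0.0164). Lists with different numbers gave r from -0.0191 to 0.0177. Presence of a peak is a coarse measure, so this cannot exclude that the numbers pair the samples or mark a batch. The block changed no call. Of the 65 variable-part peaks, 41 scored under 100, and the absence of a peak from a list says only that it was not detectable there.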
